A study of Homo sapiens with 18 samples.

Results

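The kallikrein-related peptidases examined here were KLK5, KLK6, KLK7, KLK8, KLK10, KLK11, KLK12, KLK13 and KLK14. They are 9 of the 40916 gene symbols counted and 9 of the 15 KLK symbols among them. The family was chosen by the measured levels of KLK5, which rises strongly in irradiated HCT116, so values in that contrast are given as a description, without a test. Poly(A) RNA was sequenced from 18 libraries, 3 described as biological replicates in each of 6 groups. MCF10A, a non-transformed human mammary epithelial line expressing H2B-GFP, and HCT116, a human colorectal carcinoma line carrying no label, were grown alone. The lines were also grown together in mixed cultures described as holding 50% of each. Every culture was either non-irradiated (NIR) or given 10 Gy (IR). RNA was harvested at day 2 by the titles of the samples but 72 h after irradiation by the text of the series. MCF10A was kept in F12:DMEM with horse serum, EGF, hydrocortisone, cholera toxin and insulin, and HCT116 in McCoy's 5A with fetal bovine serum. Which medium the co-cultures received is not given in the sources used here, so co-culture and medium cannot be told apart.

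Kallikrein-related peptidases are secreted serine proteases that are made as inactive precursors and become active when a short propeptide is cut off. Several of them activate other members of the family, and in the outer skin KLK5, KLK7, KLK8 and KLK14 form a cascade that cleaves the junctions between corneocytes and is held in check by the SPINK5 inhibitor. Many carcinomas of epithelial origin transcribe some of these genes, and the encoded proteases can act on adhesion molecules, the extracellular matrix and protease-activated receptors.

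The 9 genes lie next to each other on chromosome 19. In GENCODE v29 (GRCh38) they run from the start of KLK5 at 50943303 to the end of KLK14 at 51084245, a span of 140.9 kb, and all 9 are on the minus strand. The other 6 KLK genes lie in the same cluster: KLK1, KLK15, KLK3, KLK2 and KLK4 precede KLK5, and KLK9 lies between KLK8 and KLK10. An annotated read-through transcript, AC011473.4, overlaps KLK8 and KLK9, so the counting of KLK8 is uncertain. RefSeq (GRCh38.p14) start sites were matched for 8 of the 9 members, with 15 windows of 250 bases before a start. KLK8 had no entry.

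The windows before the starts of the 4 members with the clearest rise after irradiation, picked from these same data, are printed here. All are on the minus strand and read 5′ to 3′ toward the start. The position of KLK5 is chr19:50953039-50953288, of KLK6 chr19:50969592-50969841, of KLK7 chr19:50983918-50984167 (the first of 3 starts) and of KLK10 chr19:51019862-51020111 (the first of its starts). Capitals mark the GC box letters GGGCGG on either strand.
KLK5: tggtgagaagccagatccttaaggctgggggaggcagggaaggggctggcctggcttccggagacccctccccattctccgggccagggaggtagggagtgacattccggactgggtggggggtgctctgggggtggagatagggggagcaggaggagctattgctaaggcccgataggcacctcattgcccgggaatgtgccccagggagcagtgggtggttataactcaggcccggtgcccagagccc
KLK6: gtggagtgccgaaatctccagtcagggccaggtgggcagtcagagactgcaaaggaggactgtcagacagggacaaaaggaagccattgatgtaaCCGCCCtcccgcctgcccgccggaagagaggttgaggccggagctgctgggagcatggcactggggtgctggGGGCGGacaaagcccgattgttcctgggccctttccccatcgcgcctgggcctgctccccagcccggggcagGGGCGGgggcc
KLK7: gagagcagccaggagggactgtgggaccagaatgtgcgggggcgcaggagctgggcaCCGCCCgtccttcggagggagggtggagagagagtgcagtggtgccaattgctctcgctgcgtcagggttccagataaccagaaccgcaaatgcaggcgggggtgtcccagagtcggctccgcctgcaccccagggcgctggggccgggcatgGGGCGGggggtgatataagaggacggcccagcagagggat
KLK10: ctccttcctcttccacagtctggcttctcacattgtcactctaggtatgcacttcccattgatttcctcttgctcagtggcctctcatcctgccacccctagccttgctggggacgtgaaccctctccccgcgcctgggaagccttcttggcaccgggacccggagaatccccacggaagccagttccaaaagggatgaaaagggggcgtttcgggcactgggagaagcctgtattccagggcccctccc
The windows of KLK5, KLK6 and KLK7 were rich in G and C, at 64.8%, 66.8% and 67.2%, and that of KLK10 held 59.2%. The median of all 35116 promoter windows of this length was 58.0%. GC box letters stood in 9 of the 15 windows, belonging to 5 members, against 42.6% of all windows. Windows of KLK7, KLK10, KLK13 and KLK14 overlap, so some matches were counted repeatedly and the 15 windows are not independent. KLK6 held 3 matches and KLK7 2, while KLK5 and KLK10 held 0. The TATA box letters TATAAA stood in 0 of the 15 windows, against 10.7% of all windows. The AP-1 letters TGANTCA also stood in 0, against 6.57%. Both strands were searched, and the motifs do not contain each other. These are matches of letters, not binding sites.

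Library totals ran from 25.7 to 40.8 M counts (M, 1e+06), and levels are given as CPM (counts over the library total, times 1e+06). The line labels were checked with 8 marker genes a line. Summed MCF10A markers were at 9202 to 9909 CPM in MCF10A NIR and at 490 to 579 CPM in HCT116 NIR, where 3 of 8 reached 1 CPM and TP63 was at 0. Summed HCT116 markers were at 1047 to 1336 CPM in HCT116 NIR and at 9.15 to 11.2 CPM in MCF10A NIR. In HCT116 NIR 4 of these 8 reached 1 CPM, with KRT19 and EPCAM at 887 and 315 CPM, and CEACAM5 was at 0. The MCF10A marker CDH3 went against its list, at 196 ± 7.14 CPM in HCT116 NIR and 147 ± 3.58 CPM in MCF10A NIR (SD, n = 3; adjusted p = 0.0013). Genes specific to a line put the MCF10A share of counted RNA in the mixed cultures at 0.447% ± 0.053 without and 1.24% ± 0.066 with irradiation (SD, n = 3), against the described 50% of each line. In bulk RNA, fewer MCF10A cells and less RNA per MCF10A cell cannot be told apart.

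Kallikrein transcripts were counted almost entirely in HCT116 and the mixed cultures. Their summed level was 70.3 ± 11.7 CPM in HCT116 NIR and 586 ± 51.4 CPM in HCT116 IR (SD, n = 3). In the mixed cultures it was 33.1 ± 2.20 CPM without and 240 ± 19.9 CPM with irradiation (SD, n = 3). The same sum was 0.119 ± 0.054 and 0.210 ± 0.060 CPM in MCF10A NIR and IR (SD, n = 3). Within a group, levels of different genes were compared per kb of exon. In HCT116 IR, KLK6 had 106 and KLK7 95.7 CPM per kb, KLK5 had 52.1, KLK8 11.0 and KLK10 8.86. In HCT116 NIR the leading genes were again KLK6 and KLK7, at 11.3 and 11.0 CPM per kb, followed by KLK8 at 4.48, KLK5 at 2.15 and KLK10 at 2.05.

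**Figure D1:**
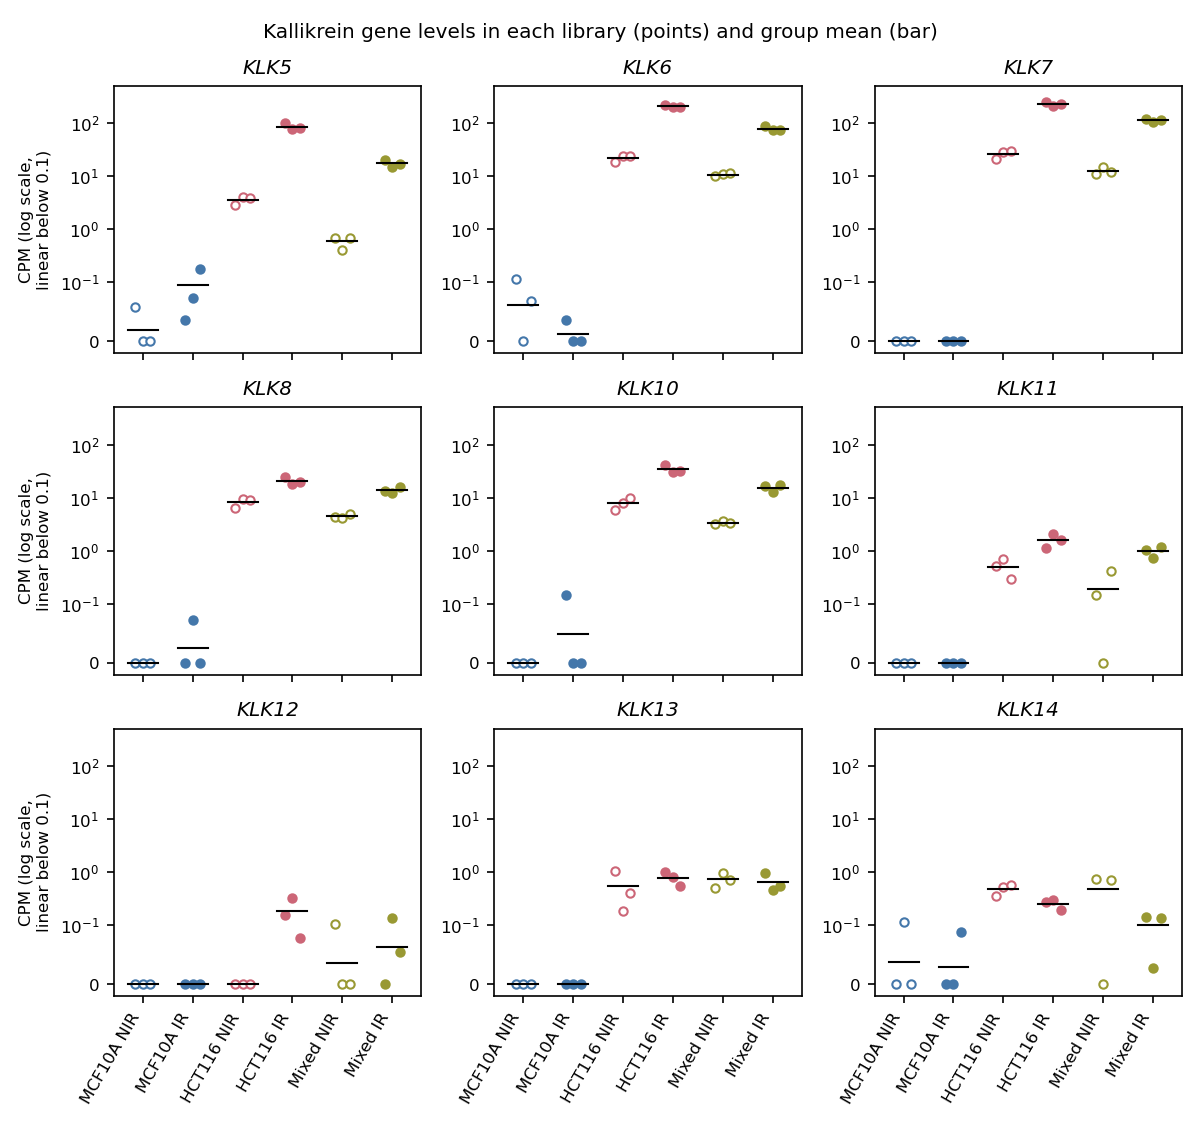
Level of each kallikrein gene in every library in CPM, on a vertical scale that is logarithmic above 0.1 and linear below it. Points are libraries, bars are means of 3 libraries, open points are NIR and filled points IR. The means of KLK5, KLK6, KLK7, KLK8 and KLK10 step down from HCT116 IR through mixed IR, HCT116 NIR and mixed NIR to MCF10A. The HCT116 values entered the choice of the family, so this order is a description. KLK11 has the same order of means with libraries that overlap at some steps, and KLK12, KLK13 and KLK14 do not follow it.

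The first comparison asked how the genes stood in the unirradiated lines. Without irradiation, KLK6, KLK7, KLK8, KLK10 and KLK14 were all higher in HCT116 than in MCF10A. KLK5 was left out of this test because the choice of the family used its HCT116 libraries. Of the other 8 members, 5 passed the filter on low counts, and all 5 were called higher at an adjusted p under 0.05. Of the 16568 genes tested, 38.7% were called higher and 36.1% lower. All 5 passed the filter through the HCT116 libraries, where they are high. Neither the count nor the adjusted p-values of these genes below are therefore support, and the levels are given gene by gene.

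KLK7, a chymotrypsin-like protease that cleaves corneodesmosomal proteins, was at 21.1, 29.0 and 30.1 CPM in the HCT116 NIR libraries and had 0 counts in all 6 MCF10A libraries. It was at least 870-fold higher in HCT116 NIR, taking 3 counts over the MCF10A NIR group as the floor, with adjusted p = 2.4e-13. KLK6, a trypsin-like protease known from brain and from carcinomas, was at 18.7, 23.8 and 24.4 CPM in HCT116 NIR. MCF10A NIR held 6 counts of it, for a ratio of 363 (95% counting interval 167 to 991; adjusted p = 7.5e-14). Every HCT116 library exceeded every MCF10A library for both genes, as was so for 48.1% of genes tested.

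KLK8, a trypsin-like protease of skin and brain, was at 6.42, 9.57 and 9.09 CPM in HCT116 NIR, and KLK10, a member with little known proteolytic activity, at 5.93, 8.08 and 9.67 CPM. Neither had a count in MCF10A NIR, which put them at least 272.5-fold (adjusted p = 8.7e-11) and at least 255-fold higher (adjusted p = 1.8e-10). KLK14, a trypsin-like activator of other kallikreins, was low even in HCT116 NIR, at 0.485 ± 0.122 CPM (SD, n = 3). Its ratio to MCF10A NIR, which held 4 counts, was 11.8 (95% counting interval 4.29 to 45.1; adjusted p = 0.002). All 4 counts came from MCF10A NIR replicate 2, and without it the fitted log2 fold change went from 3.28 to 6.86, which depends on a group at 0 and is no bound. KLK5, described only, had 332 counts in HCT116 NIR and 2 in MCF10A NIR. These intervals and floors cover counting error only. Low counts in these tables were mostly even (68.4% of values from 1 to 10), and with all counts halved the bound for KLK7 was 435-fold.

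The next question was whether irradiation moved the genes in MCF10A. It could not be answered gene by gene at this depth, because 0 of the 9 members passed the filter, while 26.2% of the 15154 genes tested were called higher and 29.2% lower. KLK5 had 2 counts in NIR and 9 in IR over 3 libraries each, KLK6 had 6 and 1, KLK8 0 and 2, KLK10 0 and 4, and KLK14 4 and 3. KLK7, KLK11, KLK12 and KLK13 had 0 counts in both MCF10A groups, and 3 counts correspond to 0.0304 CPM over the NIR group and 0.0338 CPM over the IR group. With no filter, edgeR gave values for 5 members, of which 0 had an unadjusted p under 0.05.

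Irradiated HCT116 held more transcripts of most members, which is described without a test. KLK5 was the choice criterion. This trypsin-like protease activates its own precursor and those of KLK7 and other members. It was at 2.81, 3.98 and 3.87 CPM in the NIR libraries and at 101, 76.7 and 80.8 CPM in the IR libraries. All IR libraries stood far above all NIR libraries. The fitted log2 fold change was 4.62 ± 0.127 (SE), the 13th highest of 16857 genes.

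KLK7 was at 252, 214 and 233 CPM in HCT116 IR, a log2 fold change of 3.13, and KLK6 at 222, 202 and 204 CPM, a log2 fold change of 3.24. KLK10 was at 41.3, 30.0 and 31.2 CPM (log2 fold change 2.13) and KLK8 at 24.1, 18.0 and 19.4 CPM (log2 fold change 1.31). The 5 genes shared a direction, but their fold ran from 2.47 for KLK8 to 24.5 for KLK5. Of the 8 members past the filter, 6 were at least 2-fold higher, as were 7.46% of all genes tested, and 3 were at least 8-fold higher, as were 0.457%. The libraries of 7 of the 9 members lay higher in IR without overlap, which held for 28.2% of genes tested. The contrast chose the family, so nothing is read from these counts.

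The remaining members were near the limit of detection in HCT116. KLK11, a trypsin-like protease first found in brain, was at 0.521, 0.684 and 0.290 CPM in NIR and at 1.13, 2.03 and 1.59 CPM in IR. KLK12, a trypsin-like protease, went from 0 counts to 20 counts over the 3 libraries, at least 6.33-fold higher, or 3.48-fold with halved counts. KLK13, another trypsin-like member, was at 0.542 ± 0.445 CPM in NIR and 0.786 ± 0.232 CPM in IR (SD, n = 3), and its libraries overlapped. KLK14, alone among the members, lay lower in each IR library, at 0.254 ± 0.053 CPM against 0.485 ± 0.122 CPM (SD, n = 3).

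Irradiated mixed cultures were not used to choose the family, although the rise of KLK5 in them was known from earlier results of these data and is no independent support. KLK5, KLK6, KLK7, KLK8, KLK10 and KLK11 rose after irradiation of the mixed cultures, by 3.01-fold for KLK8 to 29.1-fold for KLK5. Of the 9 members, 7 passed the filter. Among these, 6 were called higher, against 24% of the 16906 genes tested, and 0 lower, against 25.4%. The 6 include KLK5. They also include KLK11, which had 4, 0 and 15 counts in the mixed NIR libraries and passed the filter through the IR libraries, so the count is a description beside that background. Their libraries did not overlap between NIR and IR, which held in the same direction for 29.8% of genes tested.

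KLK5 was at 0.680, 0.404 and 0.695 CPM in mixed NIR and at 20.4, 15.1 and 17.2 CPM in mixed IR. Its log2 fold change was 4.86 ± 0.201 (SE; adjusted p = 6.3e-14), the 13th highest of 16906 genes. KLK7, which KLK5 can activate, was at 10.9, 14.7 and 12.0 CPM in NIR and at 121, 104 and 113 CPM in IR. All IR libraries lay far above all NIR libraries, and the log2 fold change was 3.14 ± 0.0953 (SE; adjusted p = 5.2e-16). KLK6 was at 9.98, 10.8 and 11.3 CPM in NIR and at 87.0, 74.7 and 73.2 CPM in IR, a log2 fold change of 2.84 ± 0.0894 (SE; adjusted p = 9e-16). The SD over 3 libraries was 0.650 CPM in NIR and 7.56 CPM in IR for KLK6, and 1.92 and 8.52 CPM for KLK7.

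KLK10 and KLK8 rose less. KLK10 was at 3.11, 3.66 and 3.39 CPM in mixed NIR and at 16.3, 12.6 and 17.4 CPM in mixed IR, a log2 fold change of 2.15 ± 0.150 (SE; adjusted p = 1.5e-10). KLK8 was at 4.40, 4.07 and 5.00 CPM in NIR and at 13.1, 12.4 and 15.9 CPM in IR, a log2 fold change of 1.59 ± 0.143 (SE; adjusted p = 8e-09). KLK11 rested on 19 counts in NIR and 106 in IR, with a log2 fold change of 2.31 ± 0.662 (SE; adjusted p = 0.0062). Leaving out mixed NIR replicate 3 moved this to 3.79, and leaving out mixed NIR replicate 2 to 1.72. KLK13 was at 0.735 ± 0.240 CPM in NIR and 0.657 ± 0.270 CPM in IR (SD, n = 3), a log2 fold change of -0.20 (adjusted p = 0.75). KLK12, with 3 and 7 counts, and KLK14 did not pass the filter. KLK14 was at 0.751, 0 and 0.695 CPM in NIR and at 0.142, 0.0267 and 0.138 CPM in IR, and its NIR library at 0 lay below all IR libraries. With no filter it was called lower, with a log2 fold change of -2.24 (adjusted p = 0.027).

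MCF10A RNA also took a larger share of the mixed IR than of the mixed NIR libraries (1.24% against 0.447%). The summed level of the 9 genes in MCF10A IR was 0.210 CPM, against 240 CPM in mixed IR. The share of counts from mitochondrially encoded genes moved with irradiation as well, from 8.54% ± 0.177 to 12.3% ± 0.352 in the mixed cultures and from 8.62% ± 0.172 to 11.99% ± 0.431 in HCT116 (SD, n = 3). Its part in these results was not tested.

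Side by side, the log2 fold changes in HCT116 and in the mixed cultures were 4.62 and 4.86 for KLK5 and 3.24 and 2.84 for KLK6. They were 1.31 and 1.59 for KLK8. The HCT116 values chose the family, so their likeness to the mixed values supports nothing. On the KLK4 side the rises ended at KLK5. KLK4 itself had a log2 fold change of -1.18 ± 0.573 (SE; adjusted p = 0.094) in the mixed cultures. KLK1, tissue kallikrein, fell with a log2 fold change of -1.51 ± 0.334 (SE; adjusted p = 0.00074), from 2.60 ± 0.502 to 0.932 ± 0.408 CPM (SD, n = 3), and its value in HCT116 was -1.47. ACP4, an acid phosphatase gene beyond KLK1, had a log2 fold change of -0.07 (adjusted p = 0.91) in the mixed cultures. Of the 6 other KLK genes, 2 could be tested in the mixed cultures, 0 were called higher and 1 lower, beside 24% and 25.4% of all genes tested. KLK9 had 0 counts in all HCT116 and mixed libraries. Beyond KLK14, the transfer RNA modifier CTU1 had a log2 fold change of 0.39 ± 0.174 (SE; adjusted p = 0.072) in the mixed cultures.

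**Figure D2:**
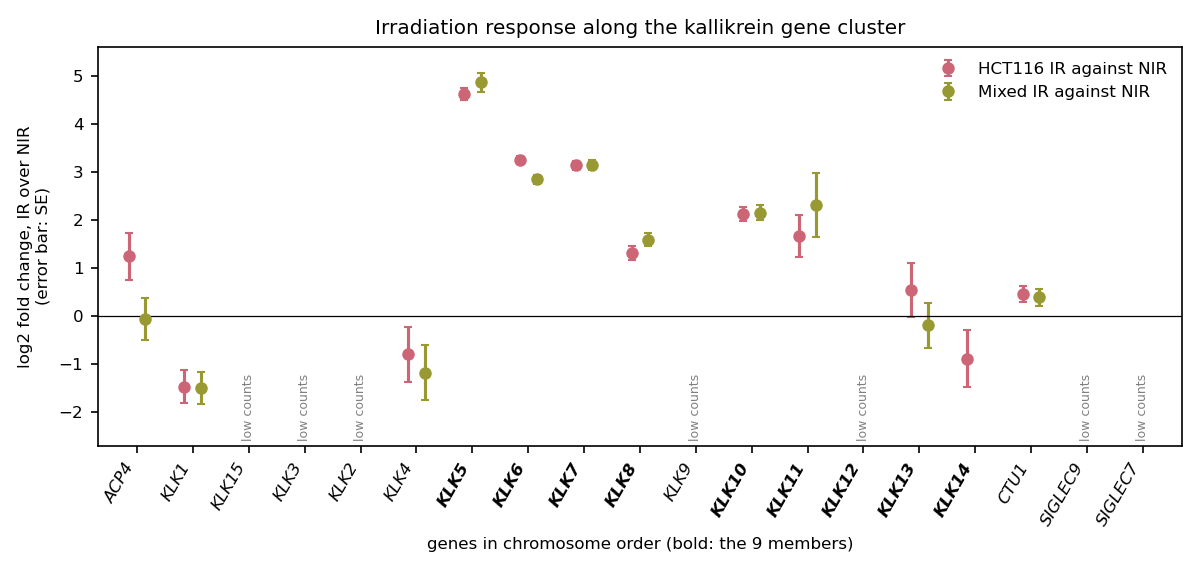
Fitted log2 fold change of IR over NIR, with its SE, for the genes of the cluster and its neighbours in chromosome order, in 1 colour for HCT116 and another for the mixed cultures. Members are in bold, genes with too few counts in both contrasts are marked, and KLK14 has a value in HCT116 only. KLK5 reaches 4.62 and 4.86, while KLK4 and KLK1 on its left lie below 0.

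Whether the response differed between the mixed cultures and MCF10A was tested with an interaction term. The 7 members that passed the filter did so through the mixed libraries, and 0 had passed it in MCF10A alone, so this test says little about them. It called 1 of them, KLK6, higher. Of all 18138 genes tested, 19.5% were called in that direction and 14.3% in the other, and nothing is read from the members' count. The fitted log2 difference of 5.03 (adjusted p = 0.0023) rested on the 6 counts of KLK6 in MCF10A NIR and the 1 count in MCF10A IR, so its size is not a bound. It was 4.13 (adjusted p = 0.080) without MCF10A NIR replicate 1 and 7.09 without MCF10A IR replicate 1. KLK7, KLK11 and KLK13 had 0 counts in every MCF10A library. KLK5 had adjusted p = 0.20, and its 2 and 9 counts in MCF10A limit this test. KLK8 and KLK10 went the other way, at -1.22 (adjusted p = 0.47) and -1.55 (adjusted p = 0.43). These values rested on 2 and 4 counts in MCF10A IR.

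The mixed cultures were next set against HCT116 alone, which asked whether the kallikrein level followed the makeup of the cultures. Without irradiation, KLK6, KLK7, KLK8 and KLK10 were lower in the mixed cultures than in HCT116. Of 7 members tested, these 4 were called lower, against 1.15% of the 16455 genes tested, and 0 higher, against 0.887%. Since the HCT116 NIR libraries entered the contrast that chose the family, this count is a description beside that background. None of the 4 overlapped between the groups, as was the case in that direction for 10.9% of genes tested. KLK6 had a log2 fold change of -1.04 ± 0.120 (SE; adjusted p = 4.6e-05). KLK7 had -1.08 ± 0.137 (SE; adjusted p = 0.00015) and KLK10 -1.20 ± 0.194 (SE; adjusted p = 0.0017). KLK8 had -0.88 ± 0.178 (SE; adjusted p = 0.011), and its adjusted p was no longer under 0.05 in 4 of 6 leave-one-out fits, those without HCT116 replicates 2 and 3 and mixed replicates 1 and 2, reaching up to 0.093.

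The values of KLK11, KLK13 and KLK14 did not pass the test, with log2 fold changes of -1.37 (95% interval -2.86 to 0.125), 0.45 and -0.0048. KLK5, described only, was at 0.593 ± 0.164 CPM in mixed NIR against 3.55 ± 0.648 CPM in HCT116 NIR (SD, n = 3). Its log2 fold change of -2.57 was the 5th lowest of 16455.

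With irradiation the same 4 genes were again lower in the mixed cultures, and KLK5 lay lowest. Of 6 members tested, 4 were called lower, against 3.48% of the 17137 genes tested, and 0 higher, against 5.08%. The HCT116 IR libraries entered the contrast that chose the family, so this count is a description beside that background. KLK6 was at 78.3 ± 7.56 CPM in mixed IR and 209 ± 11.3 CPM in HCT116 IR (SD, n = 3), a log2 fold change of -1.43 ± 0.0642 (SE; adjusted p = 3.2e-16). KLK7 was at 113 ± 8.52 against 233 ± 19.1 CPM (SD, n = 3), a log2 fold change of -1.05 ± 0.0624 (SE; adjusted p = 2.4e-13). The highest mixed library lay below the lowest HCT116 library for KLK5, KLK6, KLK7, KLK8 and KLK10, a lack of overlap found in that direction in 10.8% of genes tested.

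KLK10 was at 15.4 ± 2.49 against 34.1 ± 6.18 CPM (SD, n = 3), a log2 fold change of -1.16 ± 0.116 (SE; adjusted p = 2e-08). KLK8 showed the smallest of these differences, at 13.8 ± 1.87 against 20.5 ± 3.21 CPM (SD, n = 3), a log2 fold change of -0.58 ± 0.117 (SE; adjusted p = 0.0012). KLK11 and KLK13 did not pass the test, with log2 fold changes of -0.71 (adjusted p = 0.26) and -0.28 (adjusted p = 0.81). KLK5, described only, had a log2 fold change of -2.31, the 10th lowest of 17137. The comparisons of mixed with HCT116 cultures share their libraries with the irradiation contrasts above, of which that of HCT116 chose the family.

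Each mixed library was also set against the sum of the monoculture levels weighted by the estimated RNA share. KLK5 reached 16.8% ± 4.64 of that sum without and 20.6% ± 3.16 with irradiation (SD, n = 3). KLK6 reached 48.25% ± 2.91 and 37.9% ± 3.67, KLK7 47.0% ± 7.22 and 49.1% ± 3.73, and KLK10 43.1% ± 3.48 and 45.7% ± 7.40. Among these genes KLK8 stood closest to the sum, at 53.95% ± 5.69 and 68.0% ± 9.26. Their highest value in a mixed library was 78.5%, for KLK8 with irradiation, and KLK5 was the farthest from the sum at either treatment. The members with few counts varied widely and did not all fall short. KLK13 stood at 136% ± 44.4 and 84.6% ± 34.9, and KLK14 at 99.8% ± 86.7 and 40.7% ± 26.0. KLK11 stood at 37.7% ± 42.7 and 62.4% ± 15.1, and KLK12, with a value in IR only, at 34.9% ± 37.2. No test was made of these percentages. The MCF10A share of RNA, 0.447% without and 1.24% with irradiation, already enters the sum. The relation of the shortfall to medium, density or cell contact was not tested.

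**Figure D3:**
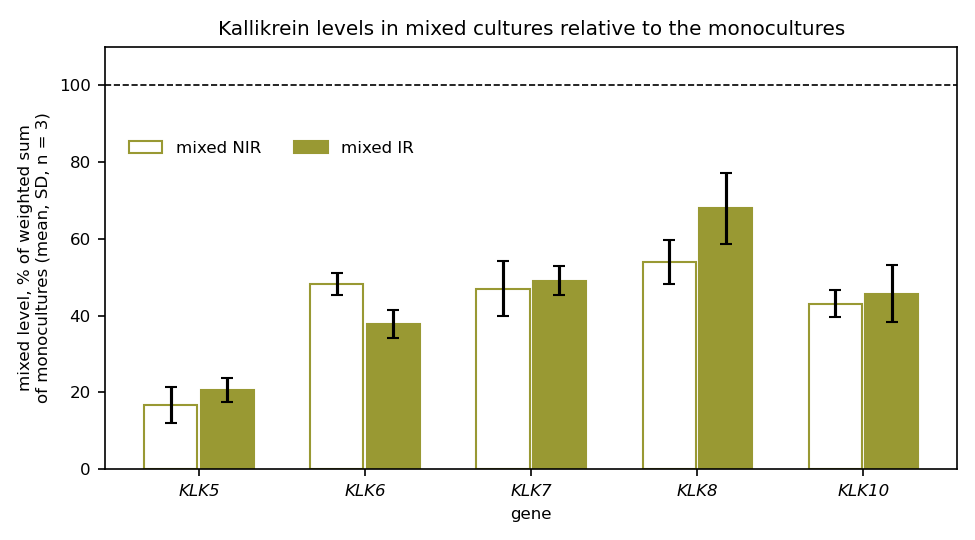
Level of the 5 well-counted members in the mixed cultures as a percentage of the share-weighted sum of the monoculture levels. Bars are means of 3 mixed libraries, error bars are SD, open bars NIR and filled bars IR, and the dashed line is 100%. KLK5 stands at 16.8% and 20.6%, the other genes between 37.9% and 68.0%.

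The makeup of the kallikrein transcripts shifted with irradiation, which is described without a test. The family was chosen by the rise of KLK5 in irradiated HCT116, and its rise in the mixed cultures was known beforehand. The larger share of KLK5, and the smaller shares of other members beside it, therefore support nothing. The shares are of the summed counts of the 9 genes, so a larger share of 1 gene lowers the others. KLK5 held 5.04% ± 0.176 of the counts in HCT116 NIR and 14.65% ± 0.895 in HCT116 IR (SD, n = 3). In the mixed cultures it held 1.81% ± 0.563 and 7.29% ± 0.507. KLK6 and KLK7 together held most of the counts in all 4 groups, with KLK7 at 47.2% ± 0.439 in mixed IR. KLK8 went from 11.8% to 3.49% in HCT116 and from 13.6% to 5.76% in the mixed cultures, while KLK10 went from 11.1% to 5.80% and from 10.2% to 6.41%.

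**Figure D4:**
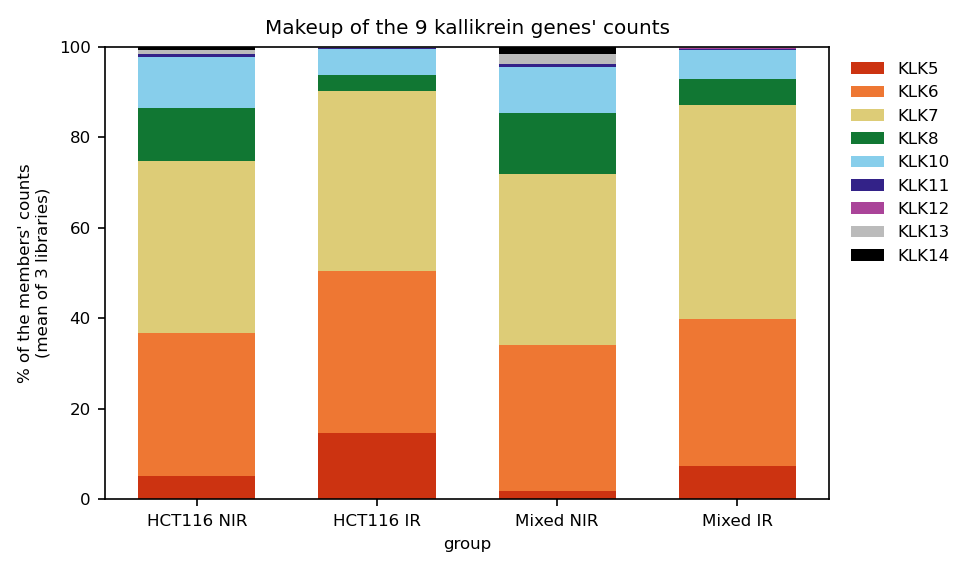
Share of each member in the summed counts of the 9 kallikrein genes, in percent, as the mean of 3 libraries in each HCT116 and mixed group. KLK5 grows from 5.04% to 14.65% in HCT116 and from 1.81% to 7.29% in the mixed cultures, and KLK8 and KLK10 shrink. The rise of KLK5 in HCT116 chose the family, so these shares are a description.

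The genes whose profile over the 6 groups lay nearest to KLK5 were found among 15435 genes, by the mean absolute difference of centred log2(CPM + 1) group means. KRTAP2-3 and KRTAP3-1, hair keratin-associated protein genes, came first, at 0.49 and 0.53, followed by GRIN2C, an NMDA receptor subunit, at 0.61 and the antisense RNA ALDH1A3-AS1 at 0.68. KLK10 was the 5th nearest, at 0.71, and KLK8 ranked 20, KLK6 38, KLK7 121 and KLK11 1310. This measure depends on the size of the change as well as its direction. KRTAP2-3 was at 1.96 CPM in HCT116 NIR and 28.8 CPM in HCT116 IR, and at 1.23 and 13.4 CPM in the mixed cultures. KRTAP3-1 went from 0.309 to 39.8 CPM in HCT116 and from 0.170 to 12.4 CPM in the mixed cultures.

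Genes that act on or beside the kallikreins were read from lists of inhibitors, upstream proteases and substrates. Among 12 inhibitors, 7 were tested in the mixed cultures, of which 3 rose and 1 fell after irradiation, beside 24% and 25.4% of all genes tested. Their median log2 fold change was 0.41, against 0.01 for all genes. The protease inhibitors A2M and SERPINA1 rose with log2 fold changes of 1.49 and 1.48, and SPINT1, an inhibitor of matriptase, with 0.23. SERPINB6, an intracellular serpin, fell with -0.20. SPINK5 and SPINK6, inhibitors directed at kallikreins, were at or near 0 in HCT116 and the mixed cultures. In MCF10A, where kallikreins were barely counted, 6 of 9 tested inhibitors rose after irradiation and 1 fell, beside 26.2% and 29.2% of all genes tested. SPINK6 rose with a log2 fold change of 2.03 (adjusted p = 7.6e-06), SPINT1 with 0.99, SPINK5 with 0.84 (adjusted p = 0.0052) and SLPI, the secretory leukocyte protease inhibitor, with 0.68. SERPINA1 and SPINT2 rose with 0.54 and 0.47, and SERPINA5 fell with -0.97 (adjusted p = 0.041).

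Of 10 proteases acting with or upstream of kallikreins, 6 were tested in the mixed cultures. Among them 3 rose and 0 fell, beside 24% and 25.4% of all genes tested, with a median of 0.50. In MCF10A all 3 that could be tested, PLAU, PRSS8 and ST14, rose, beside 26.2% of all genes tested. In the mixed cultures PLAU, the urokinase activator of plasminogen, went from 37.6 ± 3.92 to 95.1 ± 8.18 CPM (SD, n = 3; log2 fold change 1.31, adjusted p = 2.5e-11). TMPRSS4, a membrane serine protease, had a log2 fold change of 1.83 there and ST14, matriptase, of 0.16. Of 10 substrates and receptors, 7 were tested, and 4 rose while 1 fell, with a median of 0.45, beside the same background of 24% and 25.4%. In MCF10A 5 of 6 tested rose and 0 fell, beside 26.2% and 29.2% of all genes tested. The log2 fold changes in MCF10A were 2.01 for FLG, 1.58 for CDH1, 1.56 for L1CAM, 0.75 for APP and 0.18 for F2R. In the mixed cultures FLG, the filaggrin gene of the cornified layer, had a log2 fold change of 3.37 at 1.70 ± 0.285 CPM in mixed IR (SD, n = 3). The adhesion molecules L1CAM and CDH1 had 0.90 and 0.45 there, and APP 0.39. F2R, the thrombin receptor PAR-1, fell with -0.36 in the mixed cultures. F2RL1, the receptor PAR-2 that trypsin-like kallikreins can cleave, was at 206 and 203 CPM in mixed NIR and IR (log2 fold change -0.04, adjusted p = 0.55).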

How the data were processed

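Per the labels, total RNA was extracted with TriZol and libraries were made with Illumina Stranded mRNA Prep. Per the submitters' processing notes, fastp, STAR and featureCounts were used with GRCh38. Their versions, the annotation and the strand setting are not given in the sources used here. The authors deposited 1 table of raw counts per gene symbol for each of 18 libraries, without normalization. Library totals ran from 25.7 to 40.8 M counts (M, 1e+06).

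The 9 members were matched by symbol. The members, gene lists, tests and alternatives were chosen with earlier results of these data known. Each comparison used edgeR 4.0.16 in R 4.3.3 on the libraries of the compared groups only, with TMM normalization, filterByExpr and the 2-sided quasi-likelihood test. Benjamini-Hochberg adjustment ran over all genes tested, at a threshold of 0.05. The SE is the absolute log2 fold change over the square root of F. No p is given for the irradiation contrast of HCT116, or for KLK5 where HCT116 libraries entered, since the family was chosen on them. P-values set the difference between groups against a dispersion estimated from the compared libraries and moderated over all genes. With 3 libraries a group, very small p-values rest on this model. CPM is counts over the library total times 1e+06. With 0 counts in a group, folds were taken against 3 counts over its libraries.

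The MCF10A share of RNA was the median level of MCF10A-specific genes in a mixed library relative to MCF10A alone, over the sum of that and the same value for HCT116-specific genes (specific: at least 20 CPM in the mean of a line and below 1 CPM in all libraries of the opposite line, same treatment). The HCT116-specific genes included 2 members in NIR and 5 in IR. Beside the 9 members, inhibitors, proteases and substrates were named by the irradiation contrasts of the mixed cultures and MCF10A. There the adjusted p had to be under 0.05 and the higher group at least at 1 CPM. F2RL1, which did not pass in these 2 contrasts, was also named, chosen after its values were seen. The 5 genes nearest to KLK5 were named by profile, and other neighbours in the cluster by position. Exon lengths and positions came from GENCODE v29 and start sites from RefSeq. The edgeR procedure and the RNA share were checked on simulated data. Replicate libraries differed by a chi-squared of at least 4.77 per gene, so none was deposited in duplicate. Alternatives were DESeq2 1.42.0, upper-quartile factors, no filter, halved counts, a replicate block and leaving out each library. A detail of the HCT116 label and its check are not reported here.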

Additional observations from a re-analysis of the deposited data

Results flagged for a closer look

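For the irradiation response of KLK6, the interaction term called the mixed cultures higher than MCF10A, with a fitted log2 difference of 5.03 (edgeR, adjusted p = 0.0023). Of all 18138 genes tested, 19.5% were called in that direction. In the mixed cultures KLK6 rose in 3 of 3 IR libraries over all NIR libraries, and in MCF10A it had 6 counts in NIR and 1 in IR. KLK6 passed the filter through the mixed libraries only, so the test rests on these few MCF10A counts and the call is no support for a difference. The call was lost without MCF10A NIR replicate 1, at 4.13 (adjusted p = 0.080), and the fitted difference was 7.09 without MCF10A IR replicate 1.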

How the results depend on the processing

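Of the recomputed values of the comparisons, mostly counts of members called, 89 stayed within 1.5 times the reported count or within the replicate spread, and 5 moved further. The MCF10A share of RNA was 0.345% (NIR) and 1.07% (IR) with markers of at least 50 CPM, and 0.510% and 1.49% without kallikrein genes and genes called in irradiated MCF10A. The number of members called ran from 0 to 1 over fits leaving out 1 library for the response difference, 6 to 7 for irradiated mixed cultures, 5 to 7 for HCT116 against MCF10A, 3 to 4 for mixed against HCT116 without irradiation and 4 in every such fit with irradiation. Over the same fits the log2 change of KLK13 in irradiated mixed cultures ran from -0.59 to 0.065, and that of KLK14 between mixed and HCT116 NIR cultures from -0.44 to 0.59. The response difference ran from -2.21 to 2.19 for KLK10, from -1.85 to 1.63 for KLK8 and from -0.54 to 0.11 for KLK13. The replicate block changed no member count, giving 6 in irradiated mixed cultures, 0 in MCF10A, 1 for the response difference, 5 between the lines and 4 and 4 for mixed against HCT116, with KLK5 in HCT116 at 4.608. Replicate numbers did not pair libraries: the mean correlation of same-numbered deviations lay between -0.071 and 0.114 over 15 pairs of groups, and 12 of 45 correlated best with their own number. Without the filter, 7 members were called in irradiated mixed cultures and 7 between the lines, where halved counts gave 4. Depth limits KLK11 to KLK14 throughout and all 9 genes in MCF10A.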
